A study of Homo sapiens with 12 samples.

Results

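MAGE genes are a family whose type I members, on the X chromosome, encode cancer-testis antigens: proteins made in male germ cells, largely silent in other adult tissues, and switched on in many tumours, esophageal squamous cell carcinoma among them. Their silence in somatic cells depends on DNA methylation of their promoters, and ETS and SP1 factors are known to act on the unmethylated promoters. MAGE proteins bind RING ubiquitin ligases and steer them to targets, as MAGEA3 and MAGEA6 do with TRIM28 (KAP1) and the AMPK catalytic subunit PRKAA1. The genes described are MAGEA1, MAGEA3, MAGEA4, MAGEA6, MAGEA10, MAGEA11 and MAGEA12, MAGEB2, and MAGEC1 and MAGEC2. All 10 are among the 38516 genes of the deposited table. They were chosen on measured RPKM, MAGEA4 being known to differ strongly between the control cells of the 2 lines used, so the levels in control cells are a description here and carry no test.

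RNA sequencing covered 12 libraries, 3 in each of 4 groups: KYSE150 control, KYSE150 with the long non-coding RNA gene HCP5 silenced, KYSE510 control, and KYSE510 with HCP5 silenced. Both are established lines of human ESCC (esophageal squamous cell carcinoma), grown in RPMI-1640 with 10% FBS, and total RNA was used. The labels name neither the silencing reagent nor separate cultures behind the replicates, so p-values measure the spread between these libraries, which may be technical. Values are RPKM: reads per kilobase of exon, scaled to the reads of the library that were assigned to genes.

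Libraries held 20035025 to 28202422 assigned reads. In KYSE150 the controls (20035025 to 22700935) were all shallower than the silenced libraries (26281327 to 28202422). HCP5 itself was 0.770 ± 0.022 RPKM (SD, n = 3) in KYSE150 controls and 0.437 ± 0.133 after silencing, with no overlap, and 1.39 ± 0.47 and 0.801 ± 0.257 in KYSE510, where the ranges overlapped. The 8 epithelial markers listed as squamous (KRT5, KRT14, KRT6A, KRT17, TP63, SFN, DSG3 and EPCAM) summed to 1070 to 3118 RPKM per library. EPCAM is not particular to squamous epithelium. The simple epithelial markers KRT8 and KRT18 summed to 664 to 1518 RPKM per library. Of 8 germ cell markers, 5 were in the table, none reached 0.5 RPKM in any library, and they summed to 0.261 to 0.499 RPKM, SYCP3 being the highest. DDX4, TEX101 and PRM1 had no reads in any KYSE150 library.

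The sequences before the starts of MAGEA3, MAGEA6 and MAGEA4, 3 of the 4 expressed members, are shown first. MAGEA3 and MAGEA6 share theirs, while their listed RPKM values did not keep a fixed ratio. That ratio is uncertain, since the transcripts of these genes are nearly identical and reads may be shared between them (below). Promoter windows came from RefSeq on GRCh38.p14 and run from 250 bases before a gene's start to 50 after it. Windows matched 8 of the 10 members, all but MAGEA1 and MAGEA10. The RefSeq start used for MAGEA11 lies 23832 bases after the start of that gene in the deposited table. Those of MAGEA3 and MAGEA6 were identical over 300 of 300 bases. Stretches are printed 5′ to 3′ on the gene's strand, and capitals mark the word GGATGTGA. The stretch of MAGEA3 is chrX:152698544-152698735 (plus strand), that of MAGEA6 is chrX:152769748-152769939 (minus strand), and that of MAGEA4 is chrX:151912224-151912473 (plus strand).
MAGEA3: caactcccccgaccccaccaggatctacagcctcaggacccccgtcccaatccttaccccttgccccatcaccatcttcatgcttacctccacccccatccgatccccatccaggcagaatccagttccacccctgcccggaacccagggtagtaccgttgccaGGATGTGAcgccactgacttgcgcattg
MAGEA6: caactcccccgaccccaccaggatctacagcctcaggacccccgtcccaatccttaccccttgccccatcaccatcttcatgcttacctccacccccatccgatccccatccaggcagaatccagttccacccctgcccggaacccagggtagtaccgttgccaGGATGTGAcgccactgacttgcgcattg
MAGEA4: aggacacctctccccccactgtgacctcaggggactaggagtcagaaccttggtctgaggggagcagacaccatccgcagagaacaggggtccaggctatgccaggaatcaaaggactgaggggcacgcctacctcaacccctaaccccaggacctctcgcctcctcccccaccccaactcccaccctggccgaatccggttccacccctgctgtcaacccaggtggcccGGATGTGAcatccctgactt

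The word GGATGTGA was chosen after these windows had been read, and it was searched on both strands. It was in the windows of 6 of 8 members (MAGEA3, MAGEA4, MAGEA6, MAGEA11, MAGEA12 and MAGEB2) and in 406 of the 35116 windows of 300 bases in all, 1.156%. The windows of MAGEC1 and MAGEC2 hold ggatgtgc, a near match that differs only at the last letter. Near matches were not counted. MAGEA2, MAGEA2B, MAGEA9 and MAGEA9B, near relatives outside the 10 names, also hold the word itself. With 11 bases on each side, to show how far the likeness extends around it:
MAGEA12: gtcacggggccGGATGTGAcgccactgact
MAGEA2: gtcacgggcccGGATGTGAcgccactgact
MAGEA9: gcttgggggccGGATGTGAcgtcactgacg
MAGEB2: cacgggctgccGGATGTGAgtcatcctgac
These 30-base pieces lie at chrX:152733734-152733763 (plus strand) for MAGEA12, chrX:152753884-152753913 (minus strand) for MAGEA2, chrX:149781901-149781930 (plus strand) for MAGEA9 and chrX:30215489-30215518 (plus strand) for MAGEB2. The piece of MAGEA12 matched that of MAGEA2 at 29 of 30 bases, that of MAGEA9 at 24 and that of MAGEB2 at 15. MAGEA12 and MAGEA2 were near 0 in KYSE510 while MAGEA9 was near 0 in KYSE150 (values below), so genes holding the word were not all on in the same line. The letters CGGAAG, a form of the site that ETS factors bind, were searched on both strands. They were in 2 of 8 member windows (MAGEA11 and MAGEB2) and in 19.46% of all windows. Other forms of the ETS site were not searched, so the other windows are not shown to lack one. Nor was the word GGATGTGA compared with such forms, so it is not shown to be separate from an ETS site. CG pairs, the sites of DNA methylation, numbered 19 in the windows of MAGEA3 and of MAGEA6, 10 in that of MAGEA4 and 9 in that of MAGEA12, against a median of 14 over all windows. None of the 4 groups has a measure of methylation here.

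Of the members, 4 were expressed and 6 were at or near 0 in every library. MAGEA4, MAGEA3, MAGEA6 and MAGEA12 reached 0.5 RPKM in at least 3 libraries, the filter for the test. MAGEA4 and MAGEA12 did so only through KYSE150. All member positions in the table equal those of GENCODE 29 on GRCh38, where all 10 are protein-coding genes.

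MAGEA4 (chrX:151912509-151925170, plus strand), which encodes a common antigen of squamous carcinomas, was 247.7, 227.9 and 233.0 RPKM in KYSE150 controls and 265.7, 272.5 and 267.2 in KYSE150 silenced libraries. In KYSE510 it was 0.135, 0.283 and 0.0708 RPKM in controls and 0.0676, 0.0769 and 0.0391 in silenced libraries, from 3 to 22 reads per library. It ranked 197 of 38516 genes by mean level in KYSE150 controls. Pooled over 3 libraries, the KYSE150 control level was 1470.3 times that of KYSE510 (95% interval 1071 to 2078, from the counting error of 38 KYSE510 reads alone). Of those reads 22 came from KYSE510 control 2, and without that library the ratio was 2344. An antisense transcript gene overlaps it, listed under the clone name RP11-366F6.2 and matching MAGEA4-AS1 of GENCODE 29. The overlap is 172 bases, 5.58% of the exon bases of MAGEA4. The antisense gene was 3.17 ± 0.64 RPKM in KYSE150 controls and 3.39 ± 0.42 in the same line after silencing (SD, n = 3), and had at most 1 read in any KYSE510 library. Whether counting used strand is not given in the sources used here, so reads in the overlap cannot be assigned to a strand.

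MAGEA3 (chrX:152698752-152702347, plus strand) was the only member that stayed above 40 RPKM in all libraries. Its level was 80.6, 71.7 and 99.1 RPKM in KYSE150 controls and 91.9, 105.5 and 111.9 in KYSE150 silenced libraries. In KYSE510 it was 47.3, 49.1 and 53.5 RPKM in controls and 50.8, 42.8 and 53.1 in silenced libraries. All 6 KYSE510 values lay below all 6 KYSE150 values.

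MAGEA6 (chrX:152766136-152769747, minus strand), the near-copy of MAGEA3 at the far end of the same cluster, was 42.7, 41.7 and 48.1 RPKM in KYSE150 controls and 44.8, 45.5 and 44.0 in KYSE150 silenced libraries. In KYSE510 it was 8.79, 7.77 and 9.44 RPKM in controls and 7.25, 6.99 and 8.0 in silenced libraries. Again the lines did not overlap, and the gap between them was wider than for MAGEA3.

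MAGEA12 (chrX:152733779-152737669, plus strand), between those 2 genes, was 29, 26.6 and 33.4 RPKM in KYSE150 controls and 30.3, 33.7 and 33.8 in KYSE150 silenced libraries. It had 2, 1 and 2 reads in the KYSE510 controls and 0, 0 and 3 in the KYSE510 silenced libraries. Pooled control levels stood at a ratio of 890.7 (95% interval 381.7 to 2743, from 5 KYSE510 reads).

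MAGEA1, the founding member of the family, had 1, 1 and 1 reads in KYSE150 controls, 4, 3 and 3 in silenced libraries of that line, 1, 1 and 3 in KYSE510 controls and 5 or fewer in each KYSE510 silenced library. MAGEB2 had 2 reads in each KYSE150 silenced library and 0 in all other libraries. MAGEA10 had at most 2 reads in any library, MAGEA11 at most 2, MAGEC1 at most 1 and MAGEC2 at most 1. In the 3 KYSE150 controls together, 0 reads of MAGEB2 allow up to 0.0295 RPKM (3 reads). All 6 genes were under 0.5 RPKM in all libraries, so the filter left them out of the test. With no filter, MAGEB2 passed in KYSE150 (log2 change 0.13, adjusted p = 0.0137, limma) and between the silenced lines (log2 difference -0.13, adjusted p = 0.000147, limma), on these 2 reads a library against 0. The other 5 passed in no comparison with no filter (limma).

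**Figure D1:**
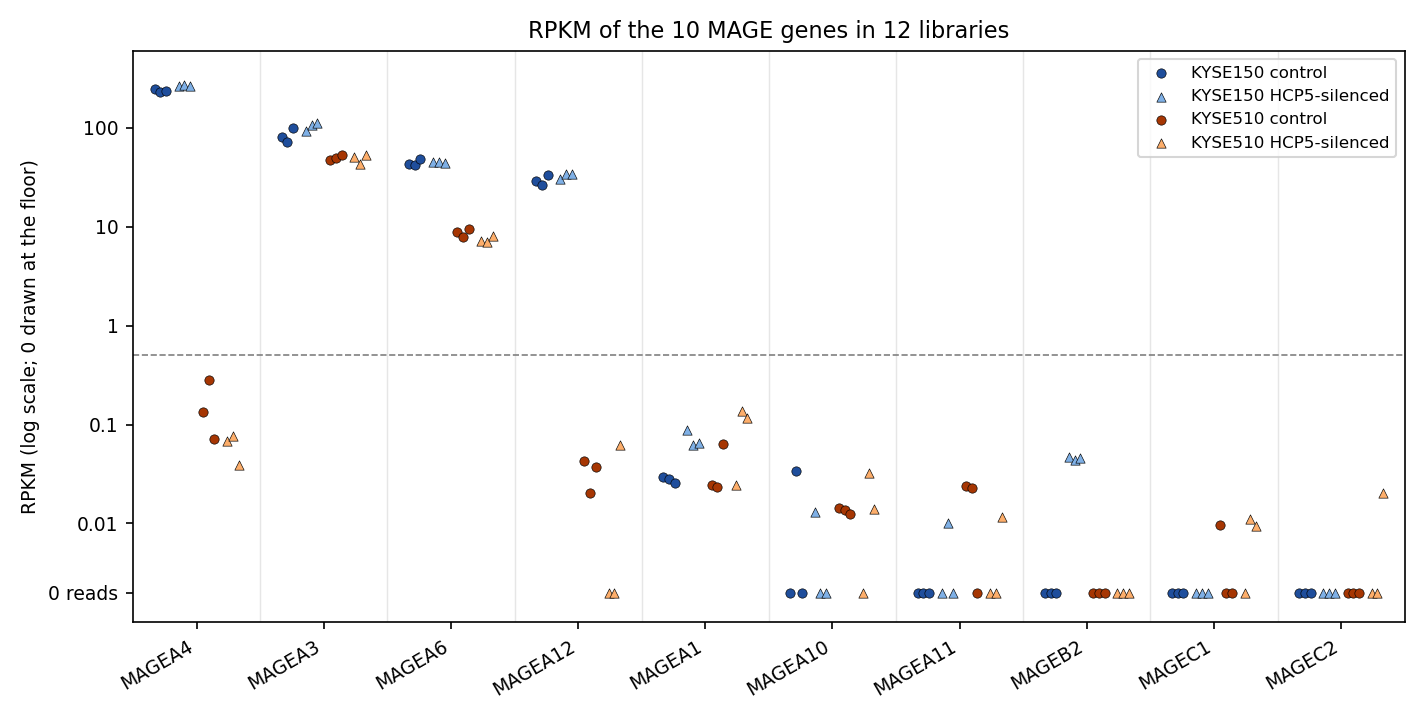
RPKM (log axis) of the 10 MAGE genes, 1 point per library, circles for control and triangles for HCP5-silenced libraries, blue for KYSE150 and orange for KYSE510, with libraries at 0 reads drawn at the floor and a dashed line at 0.5 RPKM. MAGEA4 sits between 227.9 and 272.5 in KYSE150 and under 0.5 in KYSE510, MAGEA3 is above 40 in all 12 libraries, and the 6 genes on the right lie below the dashed line in all libraries.

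In KYSE150 controls the order was MAGEA4, MAGEA3, MAGEA6, MAGEA12, and no neighbours in that order overlapped between libraries. In KYSE510 controls it was MAGEA3, MAGEA6, MAGEA4, again without overlap, followed by genes with at most 3 reads a library. Members together took 959.8 to 1049.7 RPM (reads per 1000000 assigned reads) in KYSE150 controls and 101.6 to 113.7 in KYSE510 controls. MAGEA4 supplied 68.4% to 73.2% of member reads in the 6 KYSE150 libraries, and MAGEA3 83.2% to 86.8% in the 6 KYSE510 libraries. By the root mean square difference between centred log2 profiles over the 12 libraries, the genes most like MAGEA4 were MMP14, a membrane-bound collagenase (1.20 log2 units), CCND2, cyclin D2 (1.23), and CSAG1, a cancer-testis gene of the MAGEA cluster (1.39). MMP14 was 48.9 ± 10.0 RPKM in KYSE150 controls and 0.247 ± 0.026 in KYSE510 controls, and CCND2 was 34.8 ± 2.7 and 0.0398 ± 0.0055 (SD, n = 3). With 2 lines, such likeness is mostly the difference between the lines.

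The silenced libraries were not used in choosing the members, though they come from the same 2 lines. In a comparison of KYSE510 with KYSE150 fitted to these 6 libraries alone (limma on log2(RPKM + 0.5), Benjamini-Hochberg over 17823 genes, threshold 0.05), all 4 tested members were lower in KYSE510. Of all genes tested, 40.5% were lower and 24.5% higher in KYSE510. Calls were 4370 higher and 7211 lower, or 5752 and 5502 with each library centred on its median, so the background share depends on the scaling. MAGEA4 and MAGEA12 had to differ to pass the filter at all, so their calls add nothing to their levels.

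The log2 difference, KYSE510 minus KYSE150, was -8.91 for MAGEA4 and -5.99 for MAGEA12. Both passed the filter only through KYSE150, so no p-value is given for them. MAGEA6 differed by -2.52 (SE 0.07, adjusted p = 4.69e-07, limma). MAGEA3 differed least, by -1.07 (SE 0.11, adjusted p = 0.000134, limma). The pseudocount of 0.5 holds back the first 2 values. Pooled RPKM ratios of KYSE150 over KYSE510 in silenced cells were 4454 for MAGEA4 (95% interval 2605 to 8365, 13 KYSE510 reads) and 1479 for MAGEA12 (506.2 to 7174, 3 KYSE510 reads). All 3 of those MAGEA12 reads came from KYSE510 silenced 3, and without that library, at 0 reads and a floor of 3 reads over the other 2 libraries, MAGEA12 was at least 953.5-fold higher in KYSE150. They were 6.02 for MAGEA6 and 2.10 for MAGEA3. These intervals cover counting error only.

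The difference between the lines was uneven along the cluster that holds MAGEA3, MAGEA12 and MAGEA6. From MAGEA3 to MAGEA6, chrX:152698752-152769747 holds 10 genes of the table in 71.0 kb, with MAGEA4 773.6 kb away. MAGEA3 and MAGEA6 stand at its ends. Between them, MAGEA2, MAGEA2B, MAGEA12, CSAG1, CSAG2, CSAG3 and CSAG4 were 11.5 to 37.6 RPKM in all KYSE150 libraries and under 0.5 RPKM in all KYSE510 libraries. The remaining gene, RP1-14D6.7, an antisense transcript gene in GENCODE 29, had 1 to 5 reads in each KYSE150 library (0.0437 to 0.235 RPKM) and 0 in each KYSE510 library, and was not tested. CSAG1 and MAGEA12 start in opposite directions with 43 bases between them, and so do CSAG2 and MAGEA2B, and MAGEA2 and CSAG3, with 36 bases each. CSAG1 was 32.0 ± 4.9 RPKM in KYSE150 controls and 0.0479 ± 0.0214 in KYSE510 controls (SD, n = 3). CSAG4 shares 33 exon bases with MAGEA12 on the same strand, 1.70% of the exon bases of MAGEA12.

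Other genes of Xq28 went in either direction. MAGEA9 and MAGEA9B, a pair of copies on opposite strands, farther from the cluster than MAGEA4, were listed at 0 in all 6 KYSE150 libraries. In KYSE510 controls MAGEA9 was 1.74 ± 0.21 RPKM and MAGEA9B 3.15 ± 0.43, and in KYSE510 silenced libraries 1.57 ± 0.36 and 3.05 ± 0.27 (SD, n = 3). GABRE and GABRQ encode GABA receptor subunits and lie between MAGEA4 and MAGEA3. Among silenced libraries their levels were also higher in KYSE510. GABRE was 4.19 ± 0.39 RPKM in KYSE510 and 0.622 ± 0.163 in KYSE150 (log2 difference 2.07, SE 0.13, adjusted p = 1.52e-05, limma). GABRQ was 2.61 ± 0.31 RPKM and 0.00812 ± 0.00703, and it passed the filter only through KYSE510. GABRA3, another subunit gene of that stretch, was lower in KYSE510, at 0.608 ± 0.155 RPKM against 2.23 ± 0.22 (log2 difference -1.31, SE 0.14, adjusted p = 0.000150, limma). The housekeeping neighbours NSDHL, an enzyme of cholesterol synthesis, and CETN2, a centrosome protein, were 17.7 ± 1.0 and 17.5 ± 2.3 RPKM in KYSE150 controls and 19.0 ± 1.8 and 19.7 ± 1.1 in KYSE510 controls. Of 53 genes within 300 kb of a MAGEA member, 28 were tested. Among silenced libraries 6 of them were higher and 16 lower in KYSE510, beside 24.5% and 40.5% of all genes tested. As GABRQ did, MAGEA9 and MAGEA9B passed the filter only through KYSE510. CSAG1 to CSAG4, MAGEA2, MAGEA2B and MAGEA4-AS1 passed it only through KYSE150. Such calls add nothing to the levels. The 5 neighbours with the highest mean level were NSDHL, CETN2, CSAG1, MAGEA2B and MAGEA2. The remaining neighbours named here were picked after their values were seen.

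**Figure D2:**
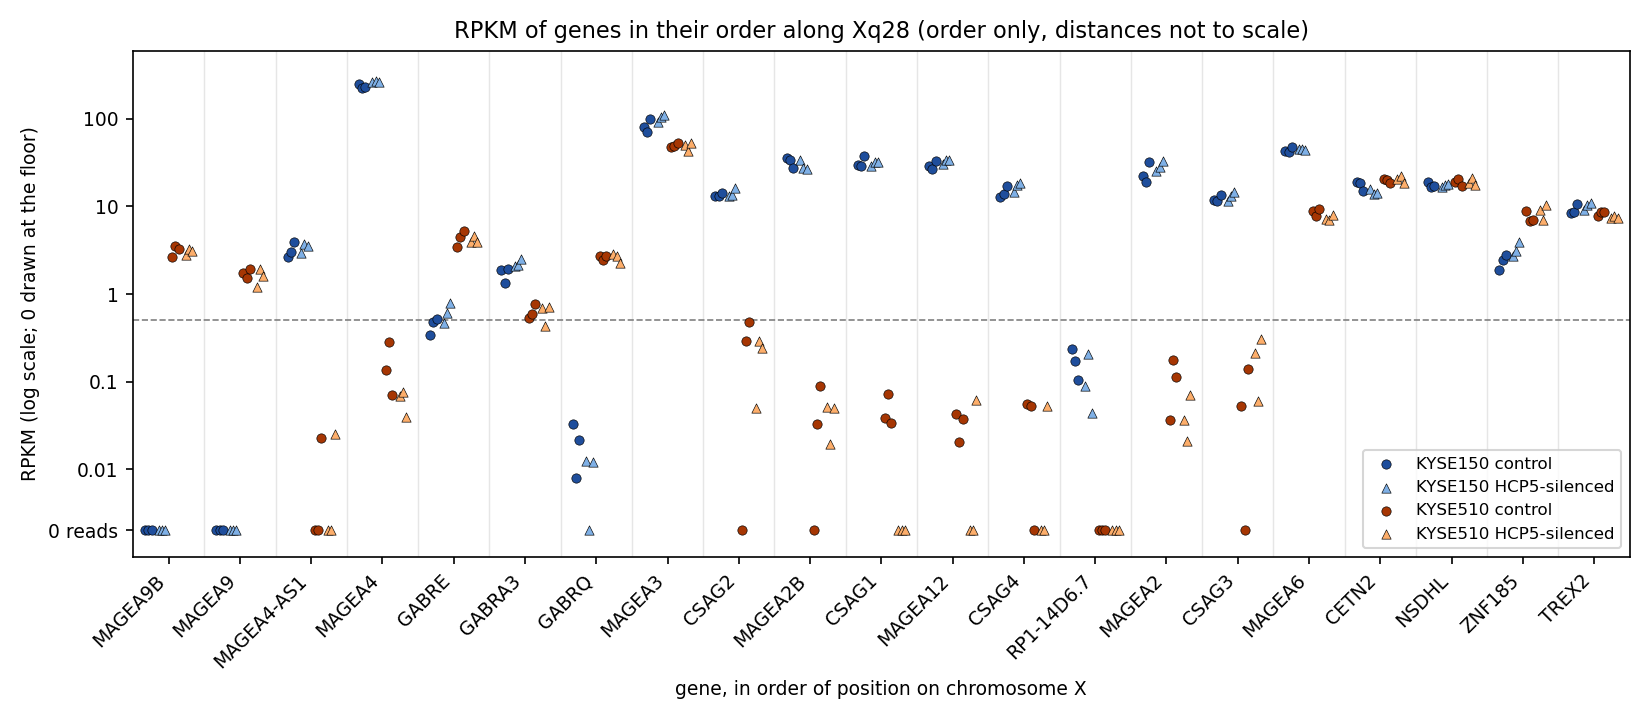
RPKM (log axis) of 21 genes in the order of their position on chromosome X (distance not to scale), 1 point per library, coloured as in the plot of the 10 MAGE genes, with libraries at 0 reads at the floor and a dashed line at 0.5 RPKM. MAGEA3 and MAGEA6 lie above the line in both lines while 7 of the 8 genes between them lie above it in KYSE150 only, RP1-14D6.7 lies below it in all libraries, and MAGEA9B, MAGEA9 and GABRQ lie above it in KYSE510 only.

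Reads of near-identical copies limit these values, since a read that fits 2 genes can be given to either, to both or to none, and the rule used is not given in the sources used here. The longest GENCODE 29 transcripts of MAGEA3 and MAGEA6 differ at 25 of 1762 aligned bases (98.58% identity). Of the 50-base words of MAGEA3 transcripts, 56.5% occur in another gene's transcripts, and of those of MAGEA6 53.9%. For MAGEA12 the share was 13.8% and for MAGEA4 2.69%. It was 94.0% for MAGEA9, 84.7% for MAGEA9B, 97.7% for CSAG2 and 95.6% for CSAG3. The values of MAGEA3, MAGEA6, MAGEA9, MAGEA9B, CSAG2 and CSAG3 are therefore uncertain, and those of MAGEA4 rest mostly on its own sequence.

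The ratio of MAGEA3 to MAGEA6 RPKM was 1.89, 1.72 and 2.06 in KYSE150 controls and 5.38, 6.32 and 5.66 in KYSE510 controls. In silenced libraries it was 2.05, 2.32 and 2.54 in KYSE150 and 7.0, 6.13 and 6.63 in KYSE510. All 6 KYSE510 values were above all 6 KYSE150 values. Between the silenced lines the means were 6.59 ± 0.44 and 2.30 ± 0.25 (SD, n = 3; exact two-sided permutation p = 0.1, the smallest that 3 against 3 can give; 0.36 adjusted over the 9 ratio and sum comparisons). The ratio in silenced against control libraries gave an exact permutation p of 0.2 in each line (adjusted 0.36).

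MAGEA2 and MAGEA2B were identical over all 1946 aligned bases of their longest transcripts. MAGEA2 was 22.3, 18.8 and 32.3 RPKM in KYSE150 controls, and MAGEA2B 35.5, 34.0 and 27.8. The share of their joint reads given to MAGEA2 was 37.1%, 34.1% and 52.2% in these controls and 41.0%, 48.9% and 53.7% in silenced libraries. Their joint level varied less, at 136.7, 125.1 and 140.6 RPM in controls and 139.2, 129.7 and 141.3 in silenced libraries (exact permutation p = 0.6, adjusted 0.60). The sum of MAGEA3 and MAGEA6 was 232.1 ± 31.3 RPM in control and 267.7 ± 17.8 in silenced KYSE150 cells (SD, n = 3; exact permutation p = 0.2, adjusted 0.36).

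**Figure D3:**
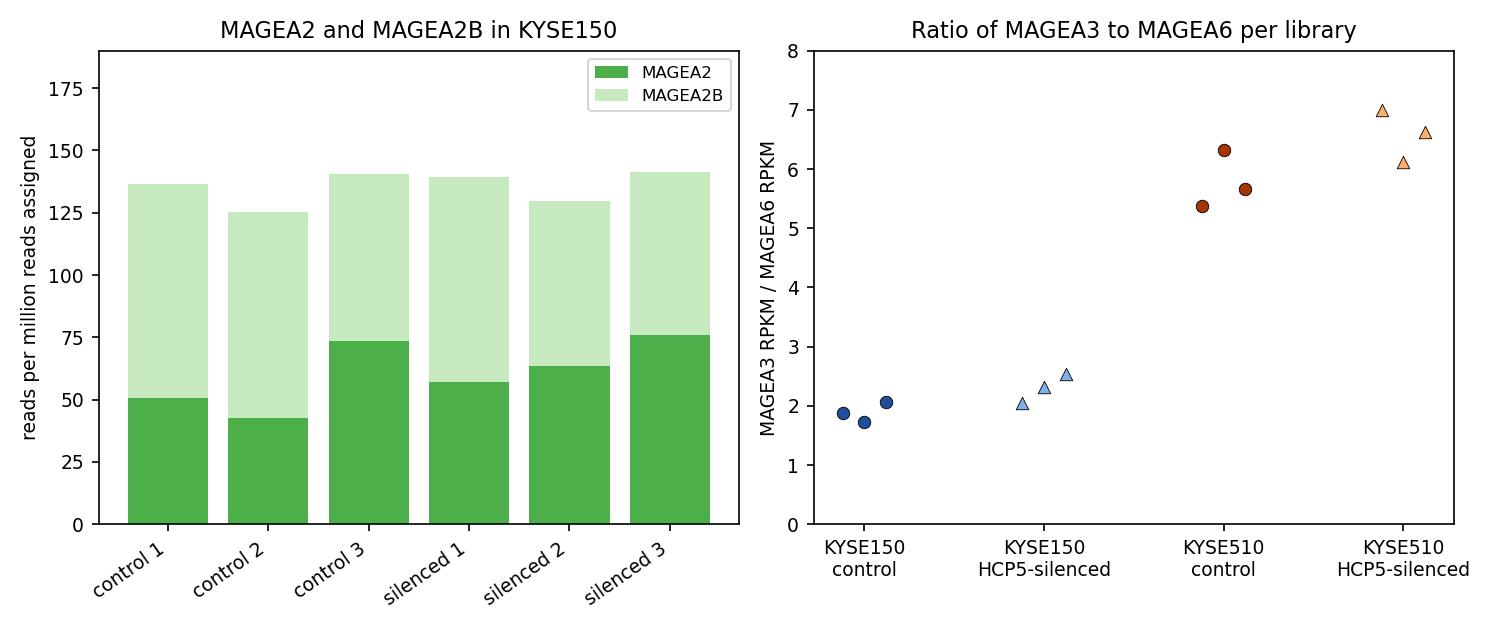
Left, MAGEA2 and MAGEA2B RPM stacked for the 6 KYSE150 libraries (linear axis from 0): the split between the copies shifts while the sum stays between 125.1 and 141.3. Right, the ratio of MAGEA3 to MAGEA6 RPKM in each of the 12 libraries, by group: all KYSE150 points lie between 1.72 and 2.54, and all KYSE510 points between 5.38 and 7.0.

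Silencing of HCP5 changed none of the 4 tested members past the threshold in either line. In KYSE150, 0.499% of the 17823 genes tested were called (67 higher and 22 lower, or 54 and 62 with each library centred on its median). In KYSE510, 0.0393% were called. Without an adjustment, 1 of 4 members in KYSE150 and 2 of 4 in KYSE510 had p under 0.05 (limma). Over all genes tested it was 3224 (18.1%) and 1132 (6.35%). Those in KYSE510 were MAGEA6 and MAGEA4, and MAGEA4 had only 38 reads in the controls and 13 in the silenced libraries. Voom on the recovered reads, without the replicate block, also called 0 of 4 members in each line.

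In KYSE150 the log2 change of MAGEA3 was 0.31 (SE 0.13, 95% interval 0.03 to 0.58, adjusted p = 0.246, limma). MAGEA4 had a change of 0.19 (SE 0.10, 95% interval -0.04 to 0.41, adjusted p = 0.352, limma). The interval for MAGEA12 was -0.08 to 0.35 around 0.14 (adjusted p = 0.467, limma), and that for MAGEA6 was -0.17 to 0.21 around 0.02 (adjusted p = 0.934, limma). The median of all genes tested was 0.08, and -0.05 after centring each library on its median. Centred values were 0.18 for MAGEA3, 0.06 for MAGEA4, 0.01 for MAGEA12 and -0.11 for MAGEA6, so the sign for MAGEA6 depends on the scaling.

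The 3 silenced KYSE150 libraries were all above the 3 controls for MAGEA4, as they were for 13.7% of genes tested. MAGEA3, MAGEA4 and MAGEA12 were higher in 3 of 3 same-numbered pairs, as were 37.4% of genes tested, and MAGEA6 in 2 of 3. All members together had 1018 ± 50.2 RPM in control and 1158 ± 28.8 in silenced KYSE150 cells (SD, n = 3; exact permutation p = 0.1, adjusted 0.36), a difference that did not pass the test. With voom weights and the replicate number as a block, MAGEA3 (adjusted p = 0.0193, limma) and MAGEA4 (adjusted p = 0.0411, limma) passed as higher, beside 14.5% of all genes tested called higher. With the block on log2 RPKM they did not (adjusted p = 0.0851 and 0.167, limma). Over 22 alternatives the adjusted p (limma) ran from 0.0193 to 0.621 for MAGEA3 and from 0.0411 to 0.829 for MAGEA4, and 1 of the 22 passed for each gene. The depth of the libraries moved with silencing in this line, as given above, and its part in these values was not tested. The markers listed as squamous moved the same way: 8 of 8 had a log2 change above 0 in KYSE150 (median 0.53, KRT14 highest at 2.09). Without the block 0 of 8 were called, and with it on log2 RPKM 6 of 8 (limma). That block called 5.04% of all genes tested higher in KYSE150. The simple epithelial markers KRT8 (-0.17) and KRT18 (-0.01) were below 0, with 0 of 2 called with or without the block. In KYSE510, 7 of the 8 markers listed as squamous were also above 0 (median 0.30). With the block on log2 RPKM 1 of these 8 was called there, beside 15 of all 17823 genes tested called higher (limma). MAGEA3 (-0.04) and MAGEA6 (-0.21) were below 0 in that line. The part of the squamous and simple epithelial markers in the MAGEA3 and MAGEA4 values was not tested either.

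In KYSE510 the log2 change of MAGEA6 was -0.21 (SE 0.09, 95% interval -0.40 to -0.02, adjusted p = 0.730, limma). For MAGEA3 it was -0.04 (95% interval -0.31 to 0.24, adjusted p = 0.995, limma). MAGEA4 and MAGEA12 were too low in this line for a change to be read from the fit: their reads in 3 libraries were 38 and 5 in controls and 13 and 3 in silenced cells. Groups overlapped for all 4 tested members, while 6.87% of genes tested had the 3 silenced libraries all below the 3 controls. MAGEA4 and MAGEA6 were lower in 3 of 3 same-numbered pairs, as were 21.8% of genes tested.

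The change with silencing was not shown to differ between the lines for any member. The interaction called 0.0% of all genes tested (0 of 17823 by limma, 2181 at an unadjusted p under 0.05, and 0 by voom without the block). With voom and the replicate block it called 7.59% of genes (1353) and 0 of 4 members, MAGEA4 coming nearest (-1.42, adjusted p = 0.0502, limma). For MAGEA4, KYSE510 minus KYSE150, it was -0.41 (SE 0.14, unadjusted p = 0.0148, adjusted p = 0.394, limma). MAGEA3 (-0.34), MAGEA6 (-0.23) and MAGEA12 (-0.17) had adjusted p of 0.427, 0.428 and 0.560 (limma). The MAGEA4 and MAGEA12 values contain KYSE510 changes that rest on few reads. Those were 38 and 5 in controls and 13 and 3 in silenced cells, so no difference between the lines can be read from them.

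**Figure D4:**
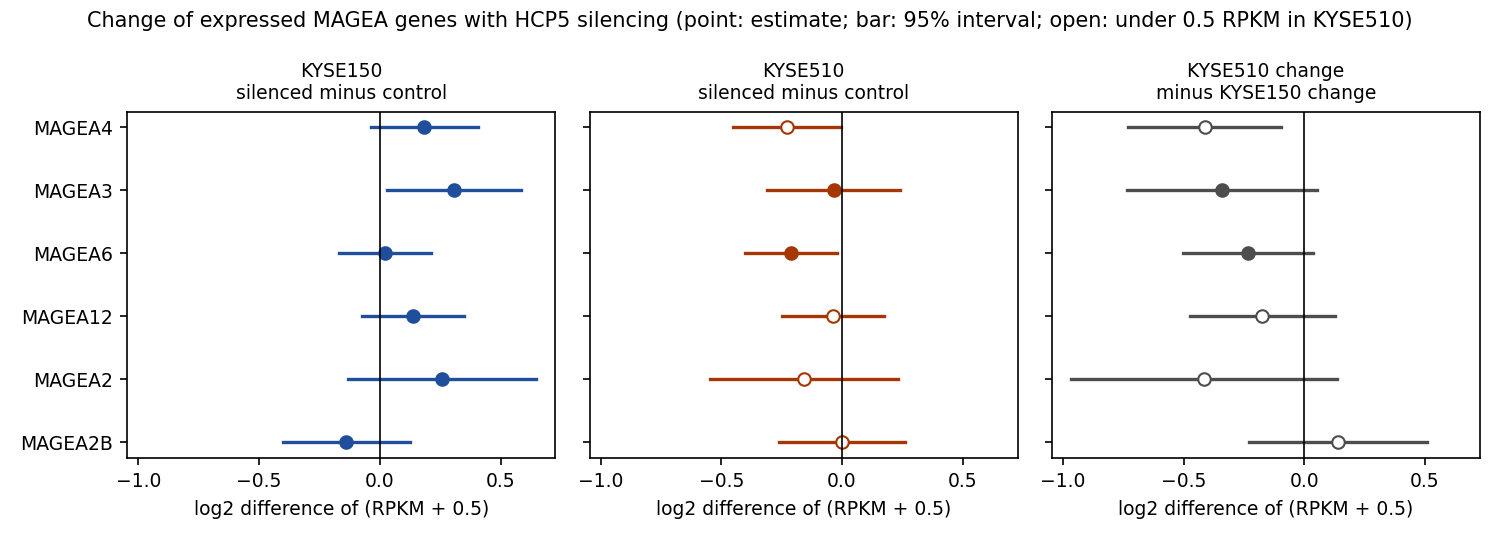
Change with HCP5 silencing on the log2(RPKM + 0.5) scale in KYSE150 (left), in KYSE510 (middle) and the difference between the lines (right) for the 4 tested members and the copies MAGEA2 and MAGEA2B, with points for estimates, bars for 95% intervals and open points where the gene was under 0.5 RPKM in KYSE510. MAGEA3 has the highest estimate in KYSE150 (0.31), and no change shown passed the adjusted threshold.

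Related genes, from lists by role, gave 0 calls with silencing in either line by the same limma test. Among 17 other type I MAGE genes, 11 were in the table and 4 tested (MAGEA2, MAGEA2B, MAGEA9 and MAGEA9B), with 0 of 4 at an unadjusted p under 0.05 in either line. Of 13 type II MAGE genes, which are broadly expressed and are not cancer-testis antigens, 7 were in the table and 3 tested. MAGEF1, which steers a ligase to a factor of iron-sulfur protein assembly, was 39.5 ± 3.3 RPKM in KYSE150 controls and 23.8 ± 4.4 in KYSE510 controls (SD, n = 3). MAGED2, which acts in renal salt handling, was 14.4 ± 0.8 and 4.61 ± 0.46. NSMCE3, a subunit of the SMC5/6 complex, was 3.10 ± 0.41 and 2.93 ± 0.25. Among silenced libraries all 3 were lower in KYSE510, with log2 differences of -0.74, -1.56 and -0.38 (adjusted p at most 0.00423, limma). Of all genes tested, 40.5% were called lower there. The gap of MAGED2 was larger than that of MAGEA3 (-1.07).

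Of 84 other cancer-testis genes, 55 were in the table and 18 tested. The 3 highest were CEP55, ATAD2 and ODF2, which act in cytokinesis, chromatin and centrosomes and are made in dividing cells generally. ATAD2 was 20.2 ± 3.6 RPKM in KYSE150 controls and 61.7 ± 2.9 in KYSE510 controls (SD, n = 3), so it ran opposite to MAGEA4. Among silenced libraries 5 of the 18 were higher and 9 lower in KYSE510, beside 24.5% and 40.5% of all genes tested. Some of the 18, such as CSAG1, passed the filter only through the line where they were higher. With silencing, 1 of 18 in KYSE150 and 0 of 18 in KYSE510 had an unadjusted p under 0.05. The median log2 change was 0.02 in KYSE150 and 0.01 in KYSE510, beside 0.08 and -0.02 over all genes tested.

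Regulators of DNA methylation and histones numbered 26, of which 25 were tested. DNMT1, the maintenance methyltransferase, was 63.7 ± 8.1 RPKM in KYSE150 controls and 44.8 ± 7.4 in KYSE510 controls (SD, n = 3). UHRF1, its recruiter, was 43.4 ± 0.7 and 40.2 ± 2.2, and the deacetylase HDAC1 was 41.7 ± 1.5 and 38.7 ± 2.3. Among silenced libraries 8 of the 25 were higher and 8 lower in KYSE510, beside 24.5% and 40.5% of all genes tested. With silencing, 1 of 25 in KYSE150 and 0 of 25 in KYSE510 had an unadjusted p under 0.05.

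Partners and targets of MAGE ubiquitin ligases numbered 36, of which 33 were tested, with 9 at an unadjusted p under 0.05 in KYSE150 and 2 in KYSE510, where shares over all genes tested were 18.1% and 6.35%. The 3 highest were SNW1, TRIM28 and HUWE1. TRIM28, the ligase partner of MAGEA3 and MAGEA6, was 54.4 ± 5.4 RPKM in KYSE150 controls, 62.5 ± 4.2 after silencing, 38.4 ± 3.3 in KYSE510 controls and 32.3 ± 0.9 after silencing (SD, n = 3). Its adjusted p was 0.270 in KYSE150 and 0.642 in KYSE510 (limma). With the replicate block, 2 of the 33 were called in KYSE150, both higher, beside 5.04% of all genes tested called higher there, so the share is near the background. PRKAA1, the AMPK subunit that MAGEA3 and MAGEA6 target, was 11.6, 10.5 and 12.6 RPKM in KYSE150 controls and 15.1, 15.6 and 16.7 after silencing (log2 change 0.44, adjusted p = 0.0739 without and 0.0249 with the replicate block, limma). SKP2, a substrate receptor of the SCF ligase, was 11.4, 11.9 and 13.1 RPKM in KYSE150 controls and 15.4, 16.1 and 16.2 after silencing (log2 change 0.38, adjusted p = 0.0531 without and 0.0289 with the replicate block, limma). For both genes the silenced libraries of KYSE150 did not overlap its controls, as for the 13.7% of all genes given above.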

How the data were processed

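RNA was measured in 12 libraries of 4 groups. The authors deposited RPKM for 38516 genes. The columns have the layout of featureCounts per the file headers, and the submitters' processing notes name HISAT2, DESeq and GRCh38. In each library RPKM times exon length came in whole steps (tolerance 0.01 reads), which gave back the reads. They served for depth, exact 95% Poisson intervals and voom.

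Genes with at least 0.5 RPKM in at least 3 libraries were tested (17823) with limma 3.58.1 in R 4.3.3 on log2(RPKM + 0.5): 4 group means over 12 libraries, or 2 over the 6 silenced ones, with a mean-variance trend, two-sided. The method was tested on simulated data. Deviations of same-numbered control and silenced libraries of a line correlated at 0.147 to 0.415 in 6 of 6 pairs. KYSE150 control 2, however, correlated more with KYSE150 silenced 1 (0.184) than with KYSE150 silenced 2 (0.147). The numbers were taken to pair libraries only in the alternatives with the replicate block. The main fits did not use them. Replicates differed by far more than sampling noise (chi-square per gene 11.26 to 40.45).

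Members, lists and tests were chosen with earlier results of these data known. Named are all members, in other lists the called genes or else the 3 highest (5 for neighbours), and the 3 genes most like MAGEA4. Python 3.11.15 was used for tables and sequences.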

Additional observations from a re-analysis of the deposited data

How the results depend on the processing

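The 16 member values (4 genes, 4 comparisons) were recomputed under each alternative, which gave 316 values: 310 kept direction and side of the threshold, 4 changed sign and 2 passed it newly. Sign changes were those of MAGEA6 in KYSE150 (0.02; -0.11 centred on library medians; -0.018 to 0.084 with 1 library left out, below 0 without KYSE150 control 2) and of MAGEA3 in KYSE510 (-0.04; -0.097 to 0.056 with 1 library left out, above 0 without KYSE510 control 3 or KYSE510 silenced 2). Members called with silencing in KYSE150 went from 0 to 1 with no filter (MAGEB2, on 2 reads a library against 0) and to 2 with voom and the replicate block, an alternative added after the data were seen. Counts over all genes moved more. In KYSE150, 89 calls became 1194 with the replicate block, 7 with only the groups compared and 3381 with voom and the block. Leaving out 1 library gave 15 (KYSE150 silenced 3) to 1287 (KYSE150 control 3), yet 0 member calls. In KYSE510, 7 calls became 20 with the block, 3 at pseudocount 0.1, 44 with no filter, 0 with only the groups compared (1338 at an unadjusted p under 0.05) and 397 with voom and the block, and 2 to 7 with 1 library left out. Interaction calls went from 0 to 10 with no filter, 1353 with voom and the block, and 0 to 4 with 1 library left out. The causes were not tested. The planned edgeR and DESeq2 fits were not run, since the deposited unit is RPKM. Depth limits the 6 low members and MAGEA4 and MAGEA12 in KYSE510.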

Other observations

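Some other genes of the lists also differed between the lines, and they are named after their values were seen. HORMAD1, a meiotic cancer-testis gene, was 5.62 ± 1.21 RPKM in KYSE510 silenced libraries and 0.00491 ± 0.00851 in KYSE150 silenced libraries (SD, n = 3), the opposite order to MAGEA4. The de novo methyltransferases DNMT3A and DNMT3B were also higher in KYSE510 among silenced libraries. DNMT3B was 11.9 ± 1.9 RPKM against 3.34 ± 0.56 (log2 difference 1.70, adjusted p = 5.89e-05, limma), and DNMT3A was 2.48 ± 0.25 against 0.673 ± 0.102 (log2 difference 1.35, adjusted p = 6.03e-05, limma). Of all genes tested, 24.5% were called higher and 40.5% lower in KYSE510 in that comparison. Of the 25 tested regulators of DNA methylation and histones, 8 were higher and 8 lower, and the lowest log2 difference was -2.42. Any part of DNMT3A and DNMT3B in the MAGE levels was not tested.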
